A study of Mus musculus with 15 samples.

Results

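Mouse 21EM15 cells, an established lens epithelial line, were profiled for the genes that build cholesterol and fatty acids, a set of 33 genes listed by their place in the pathway and matched by symbol to the processed expression tables. The sterol branch held 21 genes, from Hmgcs1 to Stard4, and the fatty acid branch held 12, from Srebf1 to Lpin1. Of the 33, 31 were present in each of the 2 tables, which hold 11677 genes for the cultures and 11299 genes for the microdissected regions, with 11041 in common. Idi1 was listed for the cultures alone and Fdps for neither, so the sterol branch counted 20 genes in the cultures and 19 in the regions, and the fatty acid branch counted 12 in each. All samples came from 1 cell line that the labels mark as wild type, with no drug or gene change. The 2D group was 4 flat cultures taken at 80% confluence, and the 3D group was 4 pools of 60 organoids, which are multilayered spheroids formed in non-adhesive wells. The internal group (n = 4) and the external group (n = 3) were the core and the rim of organoids, cut by laser capture from pools of 120 organoids. A further external sample was set aside in the study on the basis of a principal component analysis and is not analysed here, so the external replicates were in part selected on their expression.

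Cholesterol is built from acetyl-CoA through the mevalonate pathway to squalene, which is closed into lanosterol and then trimmed and rearranged into cholesterol. The transcription factor SREBP-2, made by Srebf2, drives the genes of this branch, and SREBP-1, made by Srebf1, favours those of fatty acid synthesis. When sterols are plentiful, INSIG proteins hold the SREBP precursors in the endoplasmic reticulum, and the pathway's genes are then transcribed less. In the lens, the membranes of the elongated fiber cells are known for an unusually high cholesterol content.

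Promoter windows were read because many of these genes moved together between the regions, and because SREBP binds DNA beside the factors NF-Y and Sp1. RefSeq windows of 300 bases on GRCm38.p6, 250 before and 50 after a gene start, were matched for 26 of the 33 members (32 windows). Fdps, Fdft1, Sqle, Stard4, Fads1, Scd1 and Scd2 had no window. The 6 windows below are printed 5′ to 3′ on the strand of the gene. They are those of Hmgcs1, which holds the sterol response core, and of 3 lanosterol-processing genes with large differences between the regions. The others are those of Ebp, which was not called, and of Fasn. Capitals mark the sterol response core TCACNCCAC and the NF-Y box CCAAT, each on either strand, so that a box on the other strand reads ATTGG, and neighbouring boxes may overlap.
Hmgcs1 (chr13:119690101-119690400, plus strand): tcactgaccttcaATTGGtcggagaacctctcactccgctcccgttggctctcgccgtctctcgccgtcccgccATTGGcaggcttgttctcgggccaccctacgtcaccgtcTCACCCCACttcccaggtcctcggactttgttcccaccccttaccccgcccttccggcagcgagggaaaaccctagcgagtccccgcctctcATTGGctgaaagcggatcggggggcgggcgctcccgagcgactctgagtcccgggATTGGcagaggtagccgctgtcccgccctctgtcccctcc
Cyp51 (chr5:4104648-4104947, minus strand): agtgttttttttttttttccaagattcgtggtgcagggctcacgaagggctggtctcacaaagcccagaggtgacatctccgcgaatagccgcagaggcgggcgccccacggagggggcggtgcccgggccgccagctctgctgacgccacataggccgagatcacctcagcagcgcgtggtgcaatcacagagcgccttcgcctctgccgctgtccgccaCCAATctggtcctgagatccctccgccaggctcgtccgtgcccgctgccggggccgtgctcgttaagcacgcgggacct
Msmo1 (chr8:64733529-64733828, minus strand): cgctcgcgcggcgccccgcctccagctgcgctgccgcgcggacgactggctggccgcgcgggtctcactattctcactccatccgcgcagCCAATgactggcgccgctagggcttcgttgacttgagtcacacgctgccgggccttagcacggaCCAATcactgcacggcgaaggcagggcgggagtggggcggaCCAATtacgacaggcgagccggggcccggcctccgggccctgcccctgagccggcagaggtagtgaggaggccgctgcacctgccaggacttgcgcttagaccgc
Nsdhl (chrX:72918271-72918570, plus strand): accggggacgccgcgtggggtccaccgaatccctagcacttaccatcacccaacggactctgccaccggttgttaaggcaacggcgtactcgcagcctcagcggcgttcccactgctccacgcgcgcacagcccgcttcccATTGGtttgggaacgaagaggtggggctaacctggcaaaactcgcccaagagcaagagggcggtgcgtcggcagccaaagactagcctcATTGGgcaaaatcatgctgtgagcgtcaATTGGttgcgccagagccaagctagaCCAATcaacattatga
Ebp (chrX:8193463-8193762, minus strand): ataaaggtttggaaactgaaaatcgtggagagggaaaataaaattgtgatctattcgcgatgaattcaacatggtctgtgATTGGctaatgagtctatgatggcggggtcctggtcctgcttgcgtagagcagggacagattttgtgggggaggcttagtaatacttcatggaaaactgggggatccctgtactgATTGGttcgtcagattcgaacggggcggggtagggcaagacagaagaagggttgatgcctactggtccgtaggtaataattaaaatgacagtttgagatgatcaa
Fasn (chr11:120824498-120824797, minus strand): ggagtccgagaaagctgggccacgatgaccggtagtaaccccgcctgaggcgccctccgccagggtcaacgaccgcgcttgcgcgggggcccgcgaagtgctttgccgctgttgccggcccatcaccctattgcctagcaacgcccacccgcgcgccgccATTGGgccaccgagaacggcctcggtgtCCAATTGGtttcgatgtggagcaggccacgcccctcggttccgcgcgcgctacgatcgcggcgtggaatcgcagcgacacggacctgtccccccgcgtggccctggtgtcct

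The core TCACNCCAC was found in the window of 1 of 17 sterol branch genes, Hmgcs1, as TCACCCCAC at position -137 from the start, with the nearest CCAAT box beginning 39 bases before it. It was found in 0 of 9 fatty acid branch genes. By window, it lay in 5.0% for the sterol branch and 0.0% for the fatty acid branch, against 1.24% of all 32851 windows. The CCAAT box lay in 16 of 17 sterol branch genes and 5 of 9 fatty acid branch genes, that is in 80% and 50% of their windows, against 37.4% of all windows. The Sp1 box GGGCGG lay in 85% of sterol branch windows, 50% of fatty acid branch windows and 35.7% of all windows. The E-box CACGTG was in 4 of 17 sterol branch genes and 0 of 9 fatty acid branch genes, with 7.15% of all windows. Of the windows printed above, Nsdhl and Hmgcs1 each held 4 CCAAT boxes, Msmo1 and Fasn 3, Ebp 2 and Cyp51 1. These matches describe letters in a window and carry no measurement of binding.

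The libraries were 3′ end libraries, so a gene's reads do not scale with its length. Totals were 7305053 to 9362587 reads in 2D, 7727642 to 8364276 in 3D, 4256391 to 11702504 in the internal and 4044230 to 6086089 in the external samples. At these depths a gene with 3 reads stood at 0.248 to 0.802 CPM (reads scaled to a common library size). Of 6 genes listed as markers of the lens epithelium, Pax6, Six3, Cryab and Crim1 were in each table, and Cdh1 and Foxe3, which mark it best, were in neither. Cryab and Crim1 are expressed in lens fiber cells too, so the label of epithelium was not checked by its defining markers. No adipocyte or hepatocyte marker, cells with high lipid synthesis, was in either table, and macrophage markers summed to at most 10 CPM in any sample. Within a group, each replicate was its own dish or its own pool of organoids of the 1 line. Nothing states that they came from separate days or passages, or whether internal and external samples of the same number share a pool. The p-values thus measure the spread between these samples. In bulk samples, fewer cells of a type and less RNA per cell cannot be told apart.

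Expression between the core and the rim of the organoids was compared first. In the internal region, 13 of 19 sterol branch genes fell relative to the external region and 0 rose. The branch had a median of -1.57 on the log2 scale, while the median over all genes was 0.04. The largest falls were those of Cyp51, by 8.49-fold, Mvd, by 6.78-fold, and Insig1, by 5.85-fold. In the fatty acid branch, Fasn and Elovl6 fell, Srebf1 was called higher, and the other 9 genes did not pass, with a median log2 fold change of -0.46. A gene was called when its limma-trend adjusted p, over all genes of the table, was under 0.01 and its log2 fold change was beyond 1 in size. By that rule 4.35% of all genes were called lower and 3.27% higher in the internal region. With an adjusted p under 0.05 alone, 17 of 19 sterol branch genes were lower and 0 higher, and 6 of 12 fatty acid branch genes were lower and 1 higher, against 12.1% lower and 9.58% higher over all genes. All 4 internal samples lay below all 3 external samples for 16 of 19 sterol branch genes and 5 of 12 fatty acid branch genes, against 15.4% of all genes, and none lay wholly above, against 13.5%. A log2 fold change below 0 was measured for 18 of 19 and 9 of 12 genes, against 47.1% of all genes.

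**Figure D1:**
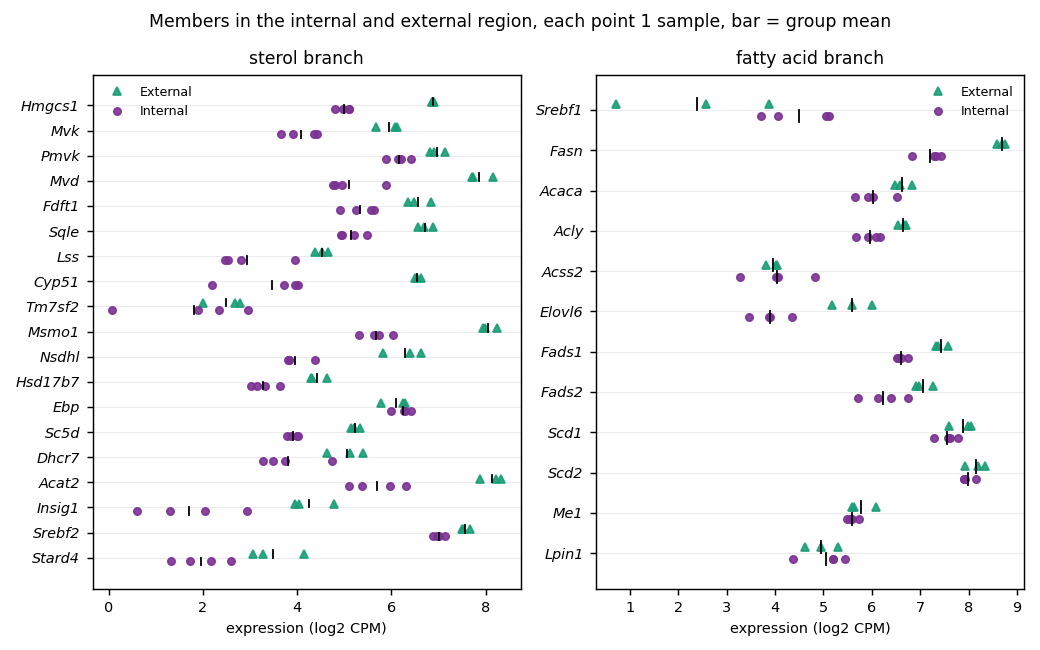
Expression (log2 CPM, horizontal axis) of each member in pathway order (vertical axis), for the sterol branch on the left and the fatty acid branch on the right; triangles are the 3 external samples, circles the 4 internal samples and bars the group means. The internal circles lie left of the external triangles for 16 of 19 sterol branch genes and for 5 of 12 fatty acid branch genes.

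Of the mevalonate pathway enzymes, which supply the isoprenoid units, 4 of the 5 in the table fell in the internal region. Acat2, a thiolase that joins 2 acetyl-CoA molecules (chr17:12942890-12960747), was at 5.97, 5.37, 6.32 and 5.10 log2 CPM in the internal samples and 8.23, 7.88 and 8.33 in the external samples. The groups did not overlap, and the log2 fold change was -2.45 (SE 0.22, limma adjusted p = 3.99e-08). Of the 50-base stretches at its 3′ end, 20.9% also occur in Acat3, a close relative, so reads from such stretches are of uncertain origin. Hmgcs1, the synthase that makes HMG-CoA, was at 4.98, 4.80, 5.11 and 5.09 internally and 6.91, 6.87 and 6.86 externally. Spread within each region was small (SD 0.14 and 0.02), and the log2 fold change was -1.89 (SE 0.19, limma adjusted p = 1.87e-07). Mvk, mevalonate kinase, was at 4.42, 3.66, 4.35 and 3.91 internally and 6.07, 5.68 and 6.11 externally, again without overlap (log2 fold change -1.87, SE 0.26, limma adjusted p = 1.38e-05). Pmvk, the next kinase, had internal values of 5.89 to 6.41 and external values of 6.81 to 7.14, and its log2 fold change of -0.80 was within the fold threshold (limma adjusted p = 0.00181). Mvd, the decarboxylase that closes the mevalonate steps (chr8:122433601-122443422), was at 4.80, 4.77, 5.88 and 4.96 internally and 7.74, 8.15 and 7.70 externally. Internal replicate 3 was the nearest to the external samples, and the log2 fold change was -2.76 (SE 0.23, limma adjusted p = 8.7e-09).

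The steps from farnesyl units to lanosterol were lower as well. Fdft1, squalene synthase, was at 4.90, 5.24, 5.63 and 5.56 log2 CPM internally and 6.36, 6.48 and 6.85 externally. The groups did not overlap, and the log2 fold change was -1.24 (SE 0.21, limma adjusted p = 0.000161), with 22.6% of its 3′ end stretches shared with Gm6781. Sqle, the epoxidase that is a rate-limiting step of the pathway, was at 4.95, 4.94, 5.20 and 5.48 internally and 6.89, 6.57 and 6.69 externally. It fell 2.97-fold (log2 fold change -1.57, SE 0.20, limma adjusted p = 4.43e-06). Lss, which closes squalene epoxide into lanosterol, was at 2.47, 2.81, 2.54 and 3.95 internally and 4.66, 4.53 and 4.38 externally. Internal replicate 4 was far above the other internal samples (183 reads against 24 to 58), and the log2 fold change was -1.59 (SE 0.39, limma adjusted p = 0.00512). The call of Lss held when internal replicate 4 was left out and was lost when any 1 of the other 6 samples was. Over all 7 of these fits the limma adjusted p was up to 0.0301 and log2 fold changes were -1.92 to -1.43.

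Among the genes that turn lanosterol into cholesterol, Cyp51, Msmo1, Nsdhl, Sc5d and Dhcr7 fell, and Tm7sf2, Hsd17b7 and Ebp were not called. Cyp51, the lanosterol demethylase (chr5:4081145-4104746), was at 3.95, 4.01, 3.71 and 2.20 log2 CPM internally and 6.63, 6.55 and 6.49 externally. Internal replicate 4 was the lowest and no internal sample came near the external ones, with a log2 fold change of -3.09 (SE 0.34, limma adjusted p = 5.73e-07). Tm7sf2, the reductase that acts after Cyp51, was low and scattered, with 5 to 90 reads internally and 17 to 40 externally, and its log2 fold change was -0.68 with an interval of -2.03 to 0.68 (limma adjusted p = 0.505). Msmo1, the sterol methyl oxidase (chr8:64718139-64733792), was at 5.32, 5.74, 5.63 and 6.03 internally and 7.98, 8.25 and 7.94 externally. Its log2 fold change was -2.38 (SE 0.18, limma adjusted p = 1.89e-09). Nsdhl, the dehydrogenase that acts next in removing the methyl groups (chrX:72918557-72958514), was at 3.83, 3.81, 4.37 and 3.83 internally and 6.63, 6.39 and 5.83 externally, and the log2 fold change was -2.32 (SE 0.26, limma adjusted p = 7.63e-07). For Cyp51, Msmo1 and Nsdhl the groups were apart by more than the full range within either region. Hsd17b7, which reduces the resulting ketone, had internal values of 3.02 to 3.64 and external values of 4.29 to 4.63, and its log2 fold change of -1.13 did not pass (limma adjusted p = 0.0191).

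Sc5d, the desaturase before the last reduction, was at 4.02, 4.0, 3.86 and 3.78 log2 CPM internally and 5.20, 5.33 and 5.14 externally. The log2 fold change was -1.31 (SE 0.27, limma adjusted p = 0.000916), and the adjusted p was 0.011 without external replicate 2. Dhcr7, a reductase at the end of the pathway, was at 3.74, 3.49, 3.28 and 4.73 internally and 5.39, 5.13 and 4.64 externally. Here the groups overlapped, since internal replicate 4 was above external replicate 3, and the log2 fold change of -1.24 (SE 0.34) passed narrowly (limma adjusted p = 0.00993). That call held only without internal replicate 4 among the 7 fits that left 1 sample out, with adjusted p up to 0.0659. Ebp, the sterol isomerase, was at 6.0, 6.27, 6.42 and 6.28 internally and 6.24, 5.77 and 6.29 externally. Its groups overlapped, and the log2 fold change was 0.14 with a 95% interval of -0.25 to 0.53 (limma adjusted p = 0.651).

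The regulators Insig1 and Srebf2 and the carrier Stard4 were all lower internally at a limma adjusted p under 0.05, and only Insig1 passed both thresholds. Insig1, whose product retains SREBP in the endoplasmic reticulum and which is itself a sterol-regulated target (chr5:28071363-28078662), was at 0.59, 2.04, 2.93 and 1.29 log2 CPM internally and 4.79, 4.04 and 3.96 externally. These values rest on 8 to 33 reads internally and 57 to 166 externally, the groups did not overlap, and the log2 fold change was -2.55 (SE 0.53, limma adjusted p = 0.00111). The adjusted p of Insig1 was 0.0173 without external replicate 1. Srebf2 itself was at 6.89, 6.97, 7.01 and 7.14 internally and 7.52, 7.67 and 7.49 externally. All internal samples were lower, but by a log2 fold change of -0.56 (SE 0.15, limma adjusted p = 0.00799), within the fold threshold. Stard4, a carrier that moves cholesterol between membranes, was at 1.72, 1.32, 2.59 and 2.18 internally and 3.28, 3.06 and 4.14 externally. Those are 19 to 51 and 37 to 65 reads, and the log2 fold change of -1.54 (SE 0.51) did not pass (limma adjusted p = 0.0324).

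In the fatty acid branch, 2 enzymes passed both thresholds as lower. Fasn, the fatty acid synthase (chr11:120805846-120824547), was at 7.28, 6.83, 7.42 and 7.33 log2 CPM internally and 8.59, 8.75 and 8.69 externally. Its groups did not overlap, and the log2 fold change was -1.46 (SE 0.15, limma adjusted p = 3.08e-07). Elovl6, the elongase that takes palmitate to stearate (chr3:129532355-129638495), was at 3.47, 4.35, 3.90 and 3.88 internally and 5.60, 5.17 and 6.01 externally. It fell 3.23-fold (log2 fold change -1.69, SE 0.29, limma adjusted p = 0.000141), and 11.7% of its 3′ end stretches are shared with Gm11295. Acly, which makes cytosolic acetyl-CoA from citrate, Fads1 and Fads2, the desaturases of polyunsaturated fatty acids, and Acaca, which makes malonyl-CoA, had smaller differences. Their log2 fold changes were -0.68, -0.81, -0.81 and -0.60, with limma adjusted p of 0.00857, 0.000445, 0.00578 and 0.0344 in that order, all within the fold threshold. For Acaca, 24.0% of the 3′ end stretches are shared with other genes.

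The stearoyl-CoA desaturases, which put the double bond into stearate, showed little difference. Scd2 was at 7.91, 7.91, 7.93 and 8.15 log2 CPM internally and 8.33, 8.19 and 7.93 externally. The groups overlapped, with a log2 fold change of -0.17 and a 95% interval of -0.47 to 0.12 (limma adjusted p = 0.42). For Scd1 the log2 fold change was -0.31 (interval -0.64 to 0.01, limma adjusted p = 0.167). Me1, which supplies NADPH, Acss2, which activates acetate, and Lpin1, a phosphatidate phosphatase, also overlapped, with log2 fold changes of -0.18, 0.08 and 0.10. Their 95% intervals were -0.60 to 0.24, -0.65 to 0.82 and -0.47 to 0.66. For Me1, 19.7% of the 3′ end stretches are shared with other genes. Srebf1, the regulator of this branch, was at 3.72, 5.11, 5.05 and 4.07 internally and 3.87, 2.58 and 0.71 externally. It was the 1 member called higher internally, at a log2 fold change of 2.10 (SE 0.54, limma adjusted p = 0.00606), although external replicate 1 lay above internal replicate 1. The external values rest on 87, 26 and 5 reads, and leaving out internal replicate 2, internal replicate 3, external replicate 2 or external replicate 3 ended the call, with log2 fold changes of 1.89, 1.91, 2.20 and 1.26.

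**Figure D2:**
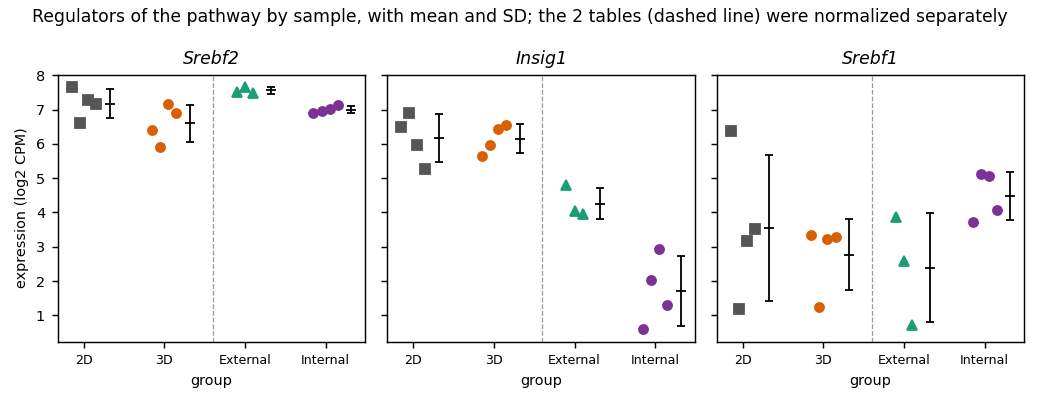
Expression (log2 CPM, vertical axis) of Srebf2, Insig1 and Srebf1 in each sample of the 4 groups, with the group mean and SD beside the points; the dashed line separates 2 tables that were normalized separately, so heights compare within a side. Insig1 is lower in all 4 internal than in all 3 external samples, Srebf2 is lower by a log2 fold change of -0.56, and Srebf1 spreads widely in each group.

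Other measures moved with these genes between the regions. All 6 proliferation markers were called lower internally, with a summed level of 30.6 to 70.3 CPM against 531 to 750 CPM externally. The 7 mitochondrially encoded genes in the table took 5.42% to 6.98% of the internal reads and 2.53% to 3.60% of the external reads. Of the lens fiber markers, 4 of 8 were in the table and 3 of them, Prox1, Hsf4 and Maf, were called higher internally, with a summed level of 402 to 446 CPM against 145 to 183 CPM, while Cryba4, Crygs, Bfsp2 and Mip were not listed. Pax6, Six3, Cryab and Crim1, of which the last 2 are expressed in fiber cells too, summed to 1930 to 2000 CPM internally and 1240 to 1390 CPM externally, with 0 called. Hypoxia markers summed to 866 to 1430 CPM internally and 1830 to 2130 CPM externally, with 2 of the 9 in the table called lower and 1 higher. The part of these lists in the lower sterol branch was not tested. Of the 13 sterol branch calls, 9 held in each fit that left 1 sample out, the exceptions being Lss, Sc5d, Dhcr7 and Insig1. With the variance not allowed to follow the expression level, the calls of Fdft1, Lss, Dhcr7, Insig1, Srebf1 and Elovl6 were lost.

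Whole organoids were then compared with flat cultures. In 3D, 3 of the 32 members in the table passed both thresholds, all lower than in 2D. Elovl6 fell 2.57-fold, Fasn 2.41-fold and Stard4 2.26-fold, and no member rose. The median log2 fold change was -0.54 over the 20 sterol branch genes and -0.50 over the 12 fatty acid branch genes, while the median over all genes was -0.03. These are 1 of 20 and 2 of 12 genes called lower, against 1.51% of all genes called lower and 2.92% called higher. With an adjusted p under 0.05 alone, 7 sterol branch and 4 fatty acid branch genes were lower and 0 higher, against 9.25% lower and 9.74% higher over all genes. All 3D samples lay below all 2D samples for 5 sterol branch and 5 fatty acid branch genes and above for 0, against 12.0% of all genes for each direction. A log2 fold change below 0 was measured for 18 of 20 and 12 of 12 genes, against 52.2% of all genes. Without 2D replicate 1 the medians were -0.34 and -0.21.

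**Figure D3:**
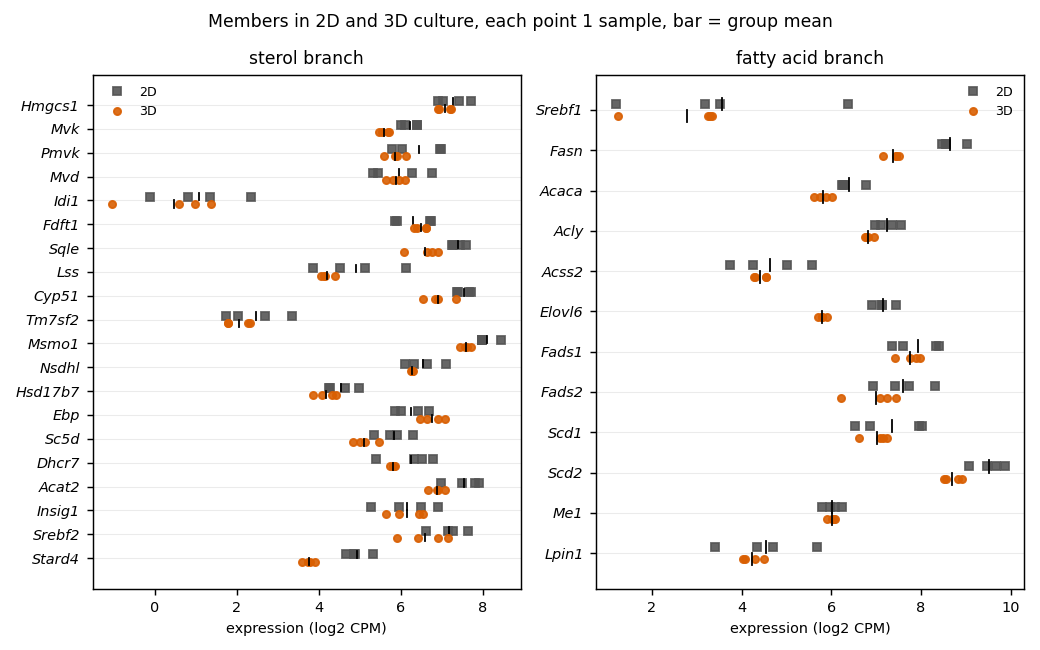
Expression (log2 CPM, horizontal axis) of each member in pathway order (vertical axis) in the cultures, sterol branch on the left and fatty acid branch on the right; squares are the 4 2D samples, circles the 4 3D samples and bars the group means. The median SD of a member is 0.42 in 2D and 0.20 in 3D, and the groups do not overlap for 10 of the 32 members, with Fasn, Elovl6 and Stard4 past both thresholds.

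Elovl6 was at 7.45, 6.91, 7.13 and 7.13 log2 CPM in 2D and 5.79, 5.89, 5.80 and 5.69 in 3D. The 3D samples were close together and far below the 2D samples, with a log2 fold change of -1.36 (SE 0.14, limma adjusted p = 0.000513). Fasn was at 8.56, 9.02, 8.55 and 8.47 in 2D and 7.44, 7.43, 7.16 and 7.50 in 3D. The log2 fold change was -1.27 (SE 0.15, limma adjusted p = 0.000739), and both genes passed in each fit that left 1 sample out. Stard4 was at 5.33, 4.85, 4.89 and 4.67 in 2D and 3.74, 3.60, 3.78 and 3.91 in 3D. Its groups did not overlap (log2 fold change -1.18, SE 0.19, limma adjusted p = 0.00287), and the call was lost without 3D replicate 1, 3 or 4, with adjusted p of up to 0.0127. Scd2, whose level hardly differed between the regions, was at 9.87, 9.68, 9.46 and 9.07 in 2D and 8.51, 8.55, 8.83 and 8.91 in 3D. All its 3D samples were lower, and the log2 fold change was -0.82 (SE 0.18, limma adjusted p = 0.012). Acaca and Acly were also below every 2D sample in 3D, with log2 fold changes of -0.57 and -0.43 (limma adjusted p = 0.031 and 0.0602).

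In the sterol branch, Stard4 aside, no difference passed the fold threshold. Sqle was at 7.58, 7.27, 7.45 and 7.24 log2 CPM in 2D and 6.08, 6.63, 6.76 and 6.92 in 3D. Its 3D samples were all lower (log2 fold change -0.79, SE 0.18, limma adjusted p = 0.0147), as were those of Mvk, from 6.0 to 6.40 in 2D and 5.47 to 5.72 in 3D (log2 fold change -0.62, limma adjusted p = 0.0149). Cyp51 and Msmo1 were likewise apart, with log2 fold changes of -0.63 and -0.51 (limma adjusted p = 0.03 and 0.0269). Sc5d and Acat2 overlapped between the groups, with log2 fold changes of -0.71 and -0.66 (limma adjusted p = 0.0436 and 0.0382). Mvd, Hmgcs1, Nsdhl and Insig1, which fell between the regions, had log2 fold changes of -0.07, -0.21, -0.26 and -0.01 in the cultures. Insig1 was at 6.50, 6.90, 5.97 and 5.28 in 2D and 5.65, 5.97, 6.44 and 6.54 in 3D. The groups overlapped throughout, and the 95% interval of its log2 fold change was -0.73 to 0.71 (limma adjusted p = 0.987).

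Several members varied more among the 2D cultures than between the conditions. Srebf1 was at 6.37, 1.19, 3.17 and 3.52 log2 CPM in 2D and 3.33, 1.23, 3.24 and 3.29 in 3D. In reads this is 787, 15, 75 and 108 against 77, 17, 71 and 77, so that replicate 2 was the lowest in both conditions, and the log2 fold change of -0.79 had an interval of -2.80 to 1.22 (limma adjusted p = 0.576). Lss was at 6.13, 4.53, 5.13 and 3.86 in 2D and 4.40, 4.15, 4.06 and 4.14 in 3D. A log2 fold change of -0.72 for Lss was within the spread of the 2D samples (SD 0.96, limma adjusted p = 0.223). Srebf2 was at 7.65, 6.62, 7.27 and 7.15 in 2D and 6.42, 5.92, 7.15 and 6.91 in 3D, with overlap (log2 fold change -0.57, limma adjusted p = 0.177). Dhcr7 ranged from 5.40 to 6.78 in 2D and from 5.74 to 5.85 in 3D (log2 fold change -0.45, limma adjusted p = 0.242). Fdft1 and Ebp were the 2 members with a log2 fold change above 0, at 0.19 and 0.53 (limma adjusted p = 0.581 and 0.102).

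The remaining members of the cultures did not pass an adjusted p of 0.05. Pmvk, Hsd17b7, Tm7sf2 and Idi1, the isomerase of the isoprenoid unit, had log2 fold changes of -0.57, -0.38, -0.42 and -0.62. Idi1 rests on 2 to 46 reads, and 47.7% of its 3′ end stretches occur in other annotated genes. Fads2, Scd1, Lpin1, Acss2, Fads1 and Me1 had log2 fold changes of -0.60, -0.32, -0.31, -0.22, -0.16 and -0.01.

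The mean of each branch in a sample, taken over members after subtracting each member's mean in its table, showed how the samples were placed. For the sterol branch it was 0.67, 0.24, 0.08 and -0.13 in 2D and -0.34, -0.37, -0.08 and -0.08 in 3D, in log2 units. 2D replicate 1 was the highest of its group for 15 of 20 sterol branch and 9 of 12 fatty acid branch genes, and 2D replicate 4 was the lowest for as many. The fatty acid branch mean was 0.92, 0.23, 0.09 and -0.10 in 2D and -0.31, -0.46, -0.21 and -0.16 in 3D. 2D replicate 4 thus lay below 3D replicates 3 and 4 for the sterol branch and above all 3D samples for the fatty acid branch. The median SD of a member was 0.42 in 2D and 0.20 in 3D, against 0.33 and 0.25 over all genes. In the regions the sterol branch mean was -0.93, -0.73, -0.50 and -0.62 internally and 1.01, 0.86 and 0.91 externally, and that of the fatty acid branch was -0.30, -0.28, -0.05 and -0.01 internally and 0.40, 0.19 and 0.05 externally. Both branch means were lower in every internal than in every external sample, by a wide gap for the sterol branch and a narrow one for the fatty acid branch. The narrow gap depends in part on Srebf1, which moved the other way, with a log2 fold change of 2.10. Its 0.71 log2 CPM in external replicate 3, on 5 reads, pulled down the lowest external mean. In the cultures, its 6.37 log2 CPM in 2D replicate 1 added to the fatty acid mean of 0.92. Fatty acid branch means without Srebf1 were not computed.

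**Figure D4:**
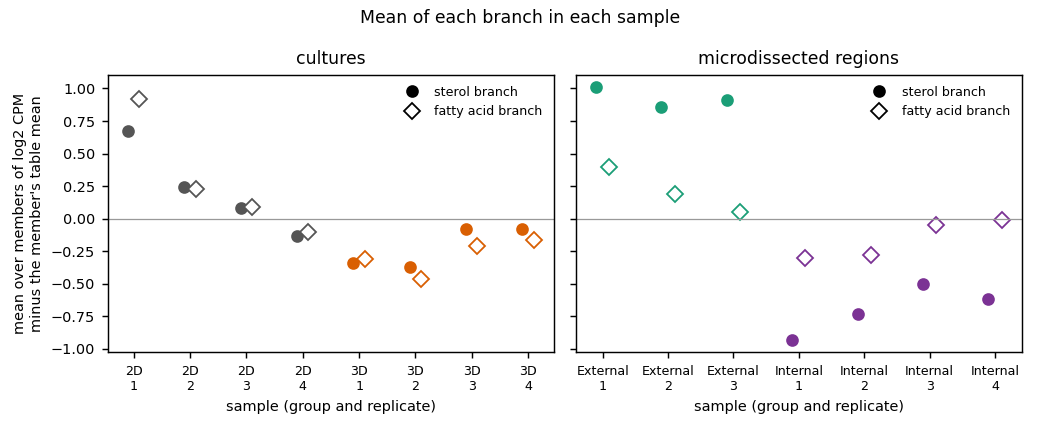
Mean over the members of a branch of log2 CPM minus the member's mean in its table (vertical axis, log2 units), for each sample (horizontal axis), cultures on the left and regions on the right; filled circles are the sterol branch and open diamonds the fatty acid branch. The external sterol branch means sit between 0.86 and 1.01 and the internal ones between -0.93 and -0.50, while 2D replicate 1 stands highest among the cultures.

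Proliferation markers moved in the cultures too, with 5 of 6 called lower in 3D and a summed level of 543 to 625 CPM against 1090 to 1870 CPM in 2D. Mitochondrially encoded genes took 4.02% to 6.23% of the reads in 3D and 2.27% to 3.72% in 2D. Of 8 lens fiber markers, 3 were listed for the cultures, namely Prox1, Maf and Cryba4. They summed to 146 to 224 CPM in 3D and 50.6 to 88.9 CPM in 2D. Their log2 fold changes were 2.84, 1.11 and -0.89, with an SD of 3.38 for Prox1 in 2D. Pax6, Six3, Cryab and Crim1 summed to 1590 to 1990 CPM in 3D and 1080 to 1500 CPM in 2D, with 0 called in either group of genes. The part of these measures in the lower values of members in 3D was not tested.

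Set side by side, the 2 comparisons share no sample and were normalized separately. Of the 19 sterol branch genes in each table, 17 had a log2 fold change below 0 in both comparisons, 7 were lower in both at an adjusted p under 0.05, and 0 were called in both. Over the 11041 genes in common these shares were 31.0%, 4.58% and 1.01%. For 18 of the 19 the value was more negative in the regions, against 51.4% of the genes in common, for example -3.09 against -0.63 for Cyp51, -2.76 against -0.07 for Mvd and -2.55 against -0.01 for Insig1. Of the 12 fatty acid branch genes, 9 were below 0 in both and 2, Fasn and Elovl6, were called lower in both. Across genes, which are not independent replicates, Pearson's r between the log2 fold changes of the 2 comparisons was 0.19 over the 19 sterol branch and 0.31 over the 12 fatty acid branch members. The fatty acid value includes Srebf1, whose log2 fold changes were of opposite sign, at 2.10 in the regions and -0.79 in the cultures. A value without Srebf1 was not computed. For Fasn the log2 fold changes were -1.46 in the regions and -1.27 in the cultures, and for Elovl6 they were -1.69 and -1.36. Ebp was above 0 in both, at 0.14 and 0.53. Whether a gene's difference is larger in one comparison than in the other was not tested.

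**Figure D5:**
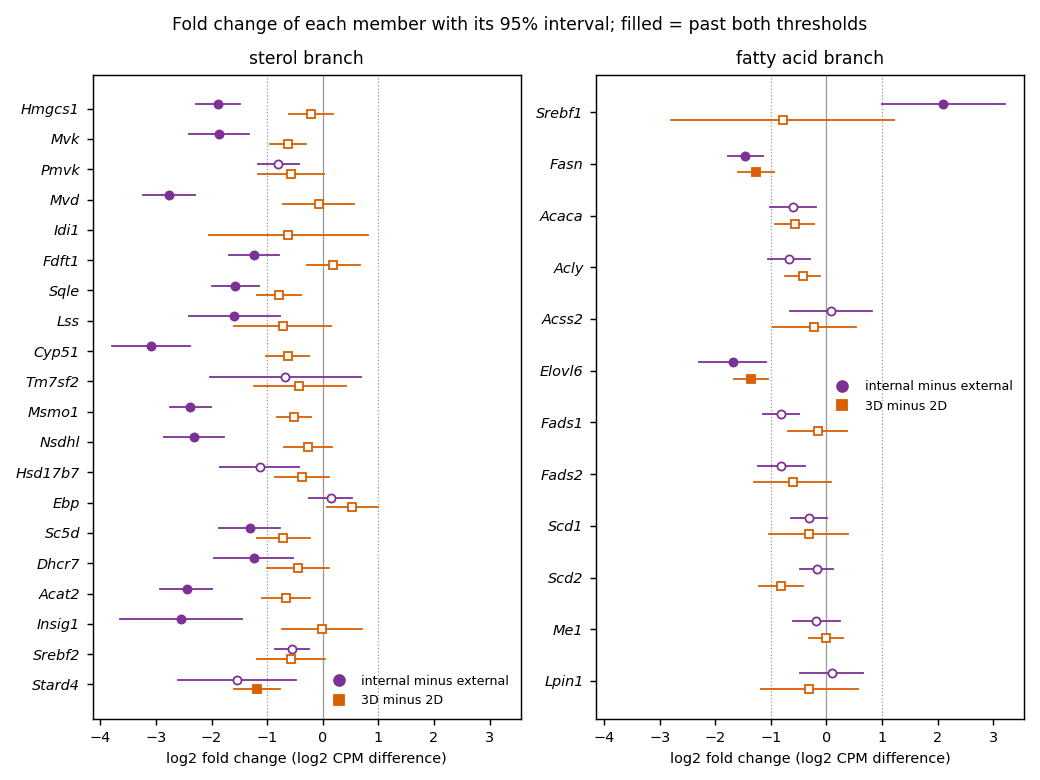
Log2 fold change (horizontal axis, with 95% interval) of each member in pathway order (vertical axis), circles for internal minus external and squares for 3D minus 2D; filled symbols passed both thresholds and dotted lines mark a log2 fold change of 1 in either direction. In the sterol branch 13 of 19 circles and 1 of 20 squares are filled, while Fasn and Elovl6 are filled for both.

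A further 57 genes of the pathway were read in the same fits. They include genes that handle SREBP, encode NF-Y or Sp1, or take up, store, elongate or activate lipids. In the regions 51 were in the table, and 5 were called lower and 0 higher, against 4.35% and 3.27% of all genes. Lbr, a lamin receptor that is also a sterol reductase, was at 3.91 to 4.76 log2 CPM internally and 5.61 to 5.68 externally (log2 fold change -1.30, SE 0.26, limma adjusted p = 0.000607). Aacs, which activates acetoacetate, was at 4.28 to 4.77 and 5.59 to 6.12 (log2 fold change -1.34, SE 0.24, limma adjusted p = 0.000219). Fads3, a desaturase of the same family as Fads1 and Fads2, Lrp8, a lipoprotein receptor of the LDL receptor family, and Acsl5, an acyl-CoA synthetase, had log2 fold changes of -1.32, -1.56 and -1.04. No internal sample of these 5 genes reached an external one. Acsl5 was no longer called without internal replicate 1 or 3 or external replicate 1 or 2 (adjusted p up to 0.0451), nor Lrp8 without external replicate 1 (0.0126). At an adjusted p under 0.05 alone, 10 of the 51 were lower and 2 higher. The lower ones included Slc25a1, the citrate carrier, Elovl1, an elongase, and Acsl4, Agpat1 and Lpin3, which activate fatty acids or build glycerolipids, with log2 fold changes of -0.43, -0.65, -0.87, -0.77 and -0.70. Lipa, the lysosomal acid lipase, and Mid1ip1, which promotes acetyl-CoA carboxylase activity, were the higher ones, with log2 fold changes of 0.77 and 0.86, within the fold threshold. Of the 11 genes that handle SREBP or encode NF-Y or Sp1, 0 passed an adjusted p of 0.05 in the regions by limma in either direction. Over all genes the shares were 12.1% lower and 9.58% higher.

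In the cultures 52 of the 57 were in the table, with 1 called lower and 0 higher, a share near the 1.51% of all genes called lower. At an adjusted p under 0.05 alone, 4 were lower and 4 higher, against 9.25% and 9.74% of all genes. Pdss1, which builds the side chain of ubiquinone, was at 4.64, 4.43, 4.49 and 4.78 log2 CPM in 2D and 3.55, 3.54, 2.98 and 3.21 in 3D (log2 fold change -1.26, SE 0.20, limma adjusted p = 0.00286), and its call was lost without 3D replicate 3 or 4 (adjusted p up to 0.0136). Lbr and Lrp8 were lower in 3D at an adjusted p under 0.05, with log2 fold changes of -0.85 and -0.86. Of 6 genes of sterol storage and transport, 3 lay the other way at the same threshold, with 0.72 for Lipa, 0.66 for Npc1 and 0.94 for Npc2, none past the fold threshold. Among the genes that handle SREBP or encode NF-Y or Sp1, Mbtps1 was higher in 3D, with a log2 fold change of 0.46 (limma adjusted p = 0.042). Nfyb was lower, at -0.65 (limma adjusted p = 0.0484).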

How the data were processed

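RNA of 15 samples of 21EM15 cells (4 2D, 4 3D, 4 internal, 3 external) was sequenced from the 3′ end. Cultures and organoids were extracted with one kit and microdissected tissue with another. The authors aligned uniquely mapped reads with STAR 2.7.8a to GRCm38.p6, counted them with featureCounts 1.6.0 and kept genes above 0.2 CPM; the annotation release is not given in the sources used here. The deposited values are log2 CPM from edgeR 3.32.1, in 2 tables normalized separately, beside columns of the authors' own comparisons, which were not used. The spacing of low values gave whole reads for 100.0% of values (tolerance 0.05 reads, prior of 2 reads), so totals per sample could be recovered.

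Because the unit is log2, each table was tested alone with limma 3.58.1 in R 4.3.3 (limma-trend, two-sided, no block, Benjamini-Hochberg over all genes), a linear model and not the count model of the study's methods. A call needed an adjusted p below 0.01 together with a log2 fold change beyond 1. Members and lists were chosen with earlier results of these data known. Values in every sample are given for Srebf1, Srebf2 and Insig1 in both comparisons and, in the comparison concerned, for members called there and the 3 members of each branch with the largest log2 fold change; called genes are named among the other pathway genes. Alternatives were the variance trend, a robust prior, voom on the recovered reads, the prior count, the scaling, the filter, the thresholds, a replicate block and leaving out each sample. Intervals cover the spread between samples, and read floors cover counting error only.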

Additional observations from a re-analysis of the deposited data

Results flagged for a closer look

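Of 95 sets of 4 values, each of 1 member in 1 group, 7 had 1 sample far from the other 3, by a gap beyond Dixon's 95% critical value for the group's range. If values were normal, chance alone would mark about 1 in 20, or 4.8 of these 95. In 2D, Msmo1 stood at 8.45 log2 CPM in replicate 1 against 7.97 to 7.99 in the others, and replicate 2 stood high for Fasn, at 9.02 against 8.47 to 8.56, and for Acaca, at 6.78 against 6.24 to 6.27. In 3D, Srebf1 stood at 1.23 in replicate 2, on 17 reads, against 3.24 to 3.33 on 71 to 77 reads. In the internal region, replicate 4 was low for Cyp51, at 2.20 against 3.71 to 4.01, and high for Scd2, at 8.15 against 7.91 to 7.93. Nsdhl stood at 4.37 in internal replicate 3 against 3.81 to 3.83. Groups of 3 were not examined in this way.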

How the results depend on the processing

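No result changed direction under any alternative where it had been called. Over all genes, 517 were called in 3D minus 2D and 861 between the regions. At an adjusted p under 0.05, with the fold change threshold kept, the first count was 978, and leaving out 1 sample gave 161 to 770. The second was 324 with no variance trend and 1478 with no fold change threshold, and 649 to 850 without 1 sample. In the cultures, sterol branch calls were 0 to 1 without 1 sample and other pathway calls 0 to 2, with 2 when both samples numbered 2 were left out and 4 with no fold change threshold. In the regions, fatty acid branch calls were 1 with no variance trend and 6 with no fold change threshold, and other pathway calls were 1 and 10. Sterol branch calls ranged from 9 to 15 over the settings and from 10 to 13 without 1 sample. The branch medians kept their sign, from -1.68 to -1.46 for the sterol branch in the regions. Dhcr7 was also lost under voom, with library totals alone and with a prior of 0.5 reads, and Srebf1 under voom and the robust prior. Labels share replicate numbers but do not say that they pair samples: same-number correlations of deviations were 0.227, 0.503, 0.066 and 0.005 in the cultures and -0.044, -0.065 and -0.063 in the regions, and 3D replicates 3 and 4 correlated best with another number. With a replicate block, 602 genes were called in 3D minus 2D and 655 between the regions, where 12 sterol branch and 2 fatty acid branch members were called, without Insig1 and Srebf1. Depth limits Idi1, Tm7sf2, Stard4, Insig1, Lss and Srebf1 most, each with 24 or fewer reads in at least 1 sample.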

Other observations

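Insig1, singled out after its values were seen, stood at 5.65 to 6.54 log2 CPM in the 3D organoids, on 391 to 751 reads, and at 3.96 to 4.79 in the external and 0.59 to 2.93 in the internal region, so both regions listed it below the whole organoids. Elovl6 stood at 5.69 to 5.89 in 3D, 5.17 to 6.01 externally and 3.47 to 4.35 internally, with the whole organoids near the external region. Fasn stood at 7.16 to 7.50 in 3D, 8.59 to 8.75 externally and 6.83 to 7.42 internally, with the whole organoids near the internal region. These levels come from 2 tables that were normalized separately and from RNA extracted with different kits, the middle layer of the organoids was not dissected, and no test was run between them.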
